A study of Mus musculus with 37 samples.

Results

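Messenger RNA of 33 genes that make, sense, move, store and dispose of cholesterol was followed in the brain of male C57BL/6J wild-type mice. The genes were found by looking up their mouse symbols among the Ensembl identifiers of the count table, and all 33 were found among its 56980 genes. They comprise 18 enzymes of cholesterol synthesis, 7 regulators and 8 genes of export, transport, esterification and turnover. The tissue label reads brain, with no cell sorting, and the title of the series names the medial prefrontal cortex. Mice started as adults at postnatal day 55 or as adolescents at postnatal day 25, drank antibiotics or plain water, and were injected under the skin with morphine at 15 mg/kg or with saline for 5 days. The labels do not name the antibiotics. The comparisons asked how age, antibiotics and morphine change gene expression, as the series title states.

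Of 37 libraries, 35 were used, with totals of 10630727 to 31560468 counts and a median of 15910823. Adult antibiotics morphine replicate 4 with 58764 counts and adolescent antibiotics saline replicate 3 with 25165 counts were left out. Adults comprised 4 libraries with antibiotics and morphine, 5 with antibiotics and saline, 5 with water and morphine, and 3 with water and saline. Adolescents comprised 5 libraries with antibiotics and morphine, 3 with antibiotics and saline, 5 with water and morphine, and 5 with water and saline. The labels do not say whether replicates came from separate mice, so p-values measure the spread between these libraries only. Levels are CPM, the counts of a gene scaled to a common library total. A change was called at a Benjamini-Hochberg adjusted p under 0.05 over 19332 genes in edgeR's quasi-likelihood test, and a log2 fold change is the first-named group over the other.

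The brain makes nearly all of its own cholesterol, because lipoproteins of the blood do not cross its barrier, and myelin holds most of it. Synthesis genes are driven by the SREBP transcription factors, which the escort protein SCAP carries out of the endoplasmic reticulum when sterols are low and which the INSIG proteins hold back when sterols are high. Astrocytes hand cholesterol to neurons on APOE particles loaded by ABC transporters, genes that the LXR receptors switch on when oxidised sterols build up.

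Adolescent water saline replicate 1 stood apart. The summed level of 12 myelin and mature oligodendrocyte markers was 20710 CPM there and 1274 to 6882 CPM in the other 34 libraries, and that of 7 striatal markers was 1107 CPM there and 95.4 to 161 CPM in the others. Markers of cortical excitatory neurons, which define the labelled cortex, summed to 2659 CPM in that library, the lowest of the 35, and reached 4554 CPM elsewhere. That library also had the highest level of 17 of the 33 cholesterol genes, 14 of them synthesis enzymes. Transcripts of pancreatic islet markers were present at 32.1 to 51.1 CPM in 7 adolescent libraries and at no more than 0.589 CPM in the other 28. The 7 comprised 3 with antibiotics and morphine, 1 with antibiotics and saline, 2 with water and morphine and 1 with water and saline. Calls are therefore also given without the library that stands apart. For age, and for antibiotics averaged over age and injection, they are also given from the 28 libraries under 1 CPM of islet markers. That fit drops all 7 others at once. It was not run for antibiotics within strata, for morphine or for differences between effects. The part of other tissue in the results was not tested beyond those values. Adult antibiotics saline replicate 2 also lay far from the other libraries of its group in read counts, as described with the processing.

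Levels differed widely among the 33 genes. Per kilobase of merged exon, Apoe, the main lipid carrier of the brain, had the highest mean level at 530 CPM per kilobase. Cyp46a1, the neuronal hydroxylase whose product leaves the brain, followed at 59.8 CPM per kilobase, and Hmgcs1, the synthase that makes the substrate of the mevalonate pathway, at 58.6. Srebf2, the SREBP gene mainly tied to cholesterol synthesis, was at 31.6 CPM per kilobase and Fdft1, squalene synthase, at 22.9. The lowest tested member was Nr1h3, an LXR gene, at 0.80 CPM per kilobase. Fdps, which makes farnesyl diphosphate, had 0 to 7 counts per library and 80 counts in all, so it was not tested. An annotated gene on the same strand, Gm43738, spans 7512 bases of it, and reads shared between the genes may not have been counted. Spread over the 35 libraries was lowest for Scap at a coefficient of variation of 3.33%, and among the enzymes it was highest for Idi1 at 22.1% and Cyp51 at 20.1%.

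Promoter windows of 300 bases, with 250 bases before the start and 50 bases after it, were available for 27 of the 33 members from RefSeq (GRCm38.p6), 15 of them enzymes. A window was searched on both strands for a sterol regulatory element, the letters TCACNCCAC, and for the CCAAT box, the letters CCAAT, which read ATTGG from the other strand. The CCAAT letters were present in 14 of 15 enzymes, 4 of 7 regulators and 3 of 5 export and turnover genes, against 41.1% of all genes with a window. The sterol element was present in 1 of the 15 enzymes, Hmgcs1, where it begins 137 bases before the start, and in 1.44% of all genes. The motifs share no bases in these windows. The windows of Hmgcs1, Mvd, Msmo1 and Nsdhl are shown because these enzymes changed with age and with antibiotics. Mvd encodes diphosphomevalonate decarboxylase, and Msmo1 and Nsdhl encode enzymes that strip methyl groups from sterols. Hmgcs1 lies at chr13:119690101-119690400 on the plus strand, Mvd at chr8:122443373-122443672 on the minus strand, Msmo1 at chr8:64733529-64733828 on the minus strand and Nsdhl at chrX:72918271-72918570 on the plus strand. Capitals mark the matches of either motif, and each sequence reads 5′ to 3′ along the gene.
Hmgcs1: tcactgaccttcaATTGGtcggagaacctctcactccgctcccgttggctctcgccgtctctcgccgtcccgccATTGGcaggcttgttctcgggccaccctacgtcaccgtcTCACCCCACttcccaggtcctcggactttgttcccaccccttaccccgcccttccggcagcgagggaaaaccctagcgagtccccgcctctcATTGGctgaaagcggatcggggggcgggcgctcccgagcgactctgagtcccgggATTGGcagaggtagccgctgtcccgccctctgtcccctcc
Mvd: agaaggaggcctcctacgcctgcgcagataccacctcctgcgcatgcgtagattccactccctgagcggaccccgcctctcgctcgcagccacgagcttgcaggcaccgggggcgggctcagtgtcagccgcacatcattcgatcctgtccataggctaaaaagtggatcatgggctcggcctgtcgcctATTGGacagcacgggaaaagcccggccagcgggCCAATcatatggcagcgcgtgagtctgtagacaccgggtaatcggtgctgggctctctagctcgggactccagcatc
Msmo1: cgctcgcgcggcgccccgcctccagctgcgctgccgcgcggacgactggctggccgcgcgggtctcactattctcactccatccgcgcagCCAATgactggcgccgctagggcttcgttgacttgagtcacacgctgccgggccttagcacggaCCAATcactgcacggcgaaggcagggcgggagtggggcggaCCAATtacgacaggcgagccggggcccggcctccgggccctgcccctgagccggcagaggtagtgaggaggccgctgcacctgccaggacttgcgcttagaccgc
Nsdhl: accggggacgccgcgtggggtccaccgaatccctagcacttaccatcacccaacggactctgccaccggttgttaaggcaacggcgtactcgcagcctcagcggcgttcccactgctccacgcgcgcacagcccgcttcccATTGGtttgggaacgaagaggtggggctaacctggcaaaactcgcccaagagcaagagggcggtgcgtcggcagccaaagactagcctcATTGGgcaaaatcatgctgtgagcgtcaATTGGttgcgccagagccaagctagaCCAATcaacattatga
Hmgcs1 and Nsdhl hold 4 CCAAT matches each, Msmo1 holds 3 and Mvd holds 2. An unbroken run of bases just after the start was found in a GENCODE M21 transcript of the gene for Mvd and Msmo1. It was not found for Hmgcs1 and Nsdhl, so the starts of their windows rest on RefSeq alone. A match of letters is a description and does not show that a factor binds there.

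Averaged over the 4 treatments, adult brains had less mRNA of the synthesis enzymes than adolescent brains. Of 32 members tested, 15 were lower and 3 higher, where 20.3% of all genes tested were called in either direction, 11.2% lower and 9.11% higher. Of 17 enzymes tested, 13 fell and none rose. All 17 had a negative log2 fold change, with a median of -0.21, while the median over all genes was 0.00. In tissue of mixed cells, fewer cells of a type and less RNA per cell cannot be told apart. Without adolescent water saline replicate 1, 21 members were called, 16 lower and 5 higher, where 25.3% of all genes were called. There 13 enzymes were lower, with a median of -0.18. In the 28 libraries under 1 CPM of islet markers, 14 members were called, 11 of them lower, where 14.4% of all genes were called. There 9 enzymes fell, with a median of -0.20.

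**Figure D1:**
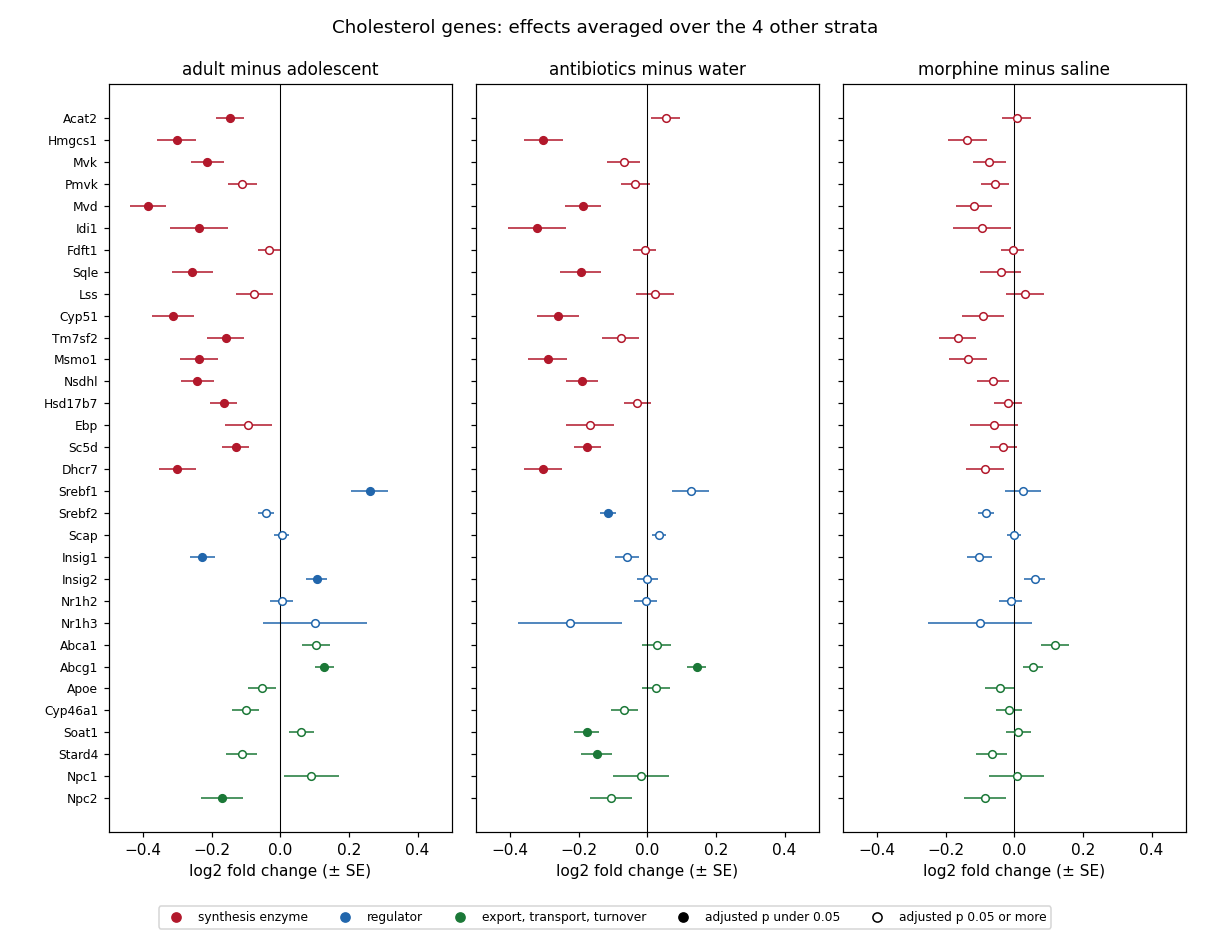
Log2 fold change (± SE, horizontal axis) of the 32 tested cholesterol genes (vertical axis) for age, antibiotics and morphine, each averaged over 4 strata, in 35 libraries. Filled points passed an adjusted p under 0.05 (edgeR): 18 for age, 13 for antibiotics and 0 for morphine, and all 17 enzymes lie left of 0 for age.

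Mvd showed the strongest change with age. Its lowest, median and highest levels were 12.7, 15.1 and 18.5 CPM in 17 adult libraries, against 15.6, 20.3 and 27.4 CPM in 18 adolescent libraries. The ranges overlap between 15.6 and 18.5 CPM. The log2 fold change was -0.39 (SE 0.053, adjusted p = 1.76e-06, edgeR), a level 0.765 times that of adolescents. Hmgcs1 ranged over 159, 256 and 296 CPM in adults and over 227, 297 and 461 CPM in adolescents, where the highest value is that of the library that stands apart. On the log2 scale it differed by -0.30 (SE 0.057, adjusted p = 0.000293, edgeR). Both enzymes act early, before the sterol ring is formed. Each overlaps an annotated gene on the other strand, Gm20388 for Mvd and Gm48342 for Hmgcs1, and without a stated strand setting reads of such neighbours cannot be told apart.

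The steps after ring closure also fell. Cyp51, the lanosterol demethylase, had 41.3, 56.1 and 67.7 CPM as lowest, median and highest level in adults, against 52.4, 69.6 and 113 CPM in adolescents, which is -0.31 on the log2 scale (SE 0.062, adjusted p = 0.00053, edgeR). Nsdhl had 12.5, 16.4 and 20.9 CPM in adults and 15.0, 19.8 and 23.1 CPM in adolescents (log2 fold change -0.24, SE 0.048, adjusted p = 0.000349). Dhcr7, which reduces dehydrocholesterol to cholesterol, had 20.9, 26.5 and 31.2 CPM in adults and 25.6, 31.6 and 50.4 CPM in adolescents (log2 fold change -0.30, SE 0.055, adjusted p = 0.000153). In all 3 genes the median adult library was lower than the median adolescent library, and the ranges overlap. The other 8 enzymes that fell were Acat2, Mvk, Idi1, Sqle, Tm7sf2, Msmo1, Hsd17b7 and Sc5d, with log2 fold changes between -0.26 for Sqle, squalene epoxidase, and -0.13 for Sc5d, a sterol desaturase. In the 28 libraries under 1 CPM of islet markers, 4 of these did not pass although their log2 fold changes were close to those from all 35 libraries. They were Acat2 at -0.14 (adjusted p = 0.0613, edgeR), against -0.15 with all 35, Sc5d at -0.12 (adjusted p = 0.0944), against -0.13, Tm7sf2 at -0.17 (adjusted p = 0.0968), against -0.16, and Idi1 at -0.21 (adjusted p = 0.167), against -0.24. Idi1, isopentenyl diphosphate isomerase, was near the threshold with all 35 libraries (adjusted p = 0.0436, edgeR) and lost its call in 24 of 43 alternative settings. With the summed myelin markers as a term, its log2 fold change was -0.13 (adjusted p = 0.127) and that of Sc5d was -0.08 (adjusted p = 0.0517). The enzymes that did not pass were Pmvk at -0.11 (adjusted p = 0.0524), Lss at -0.08, Ebp at -0.09 and Fdft1 at -0.03 on the log2 scale. Fdft1 averaged 95.6 ± 6.48 CPM in adults (SD, n = 17) and 97.7 ± 5.78 CPM in adolescents (SD, n = 18).

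**Figure D2:**
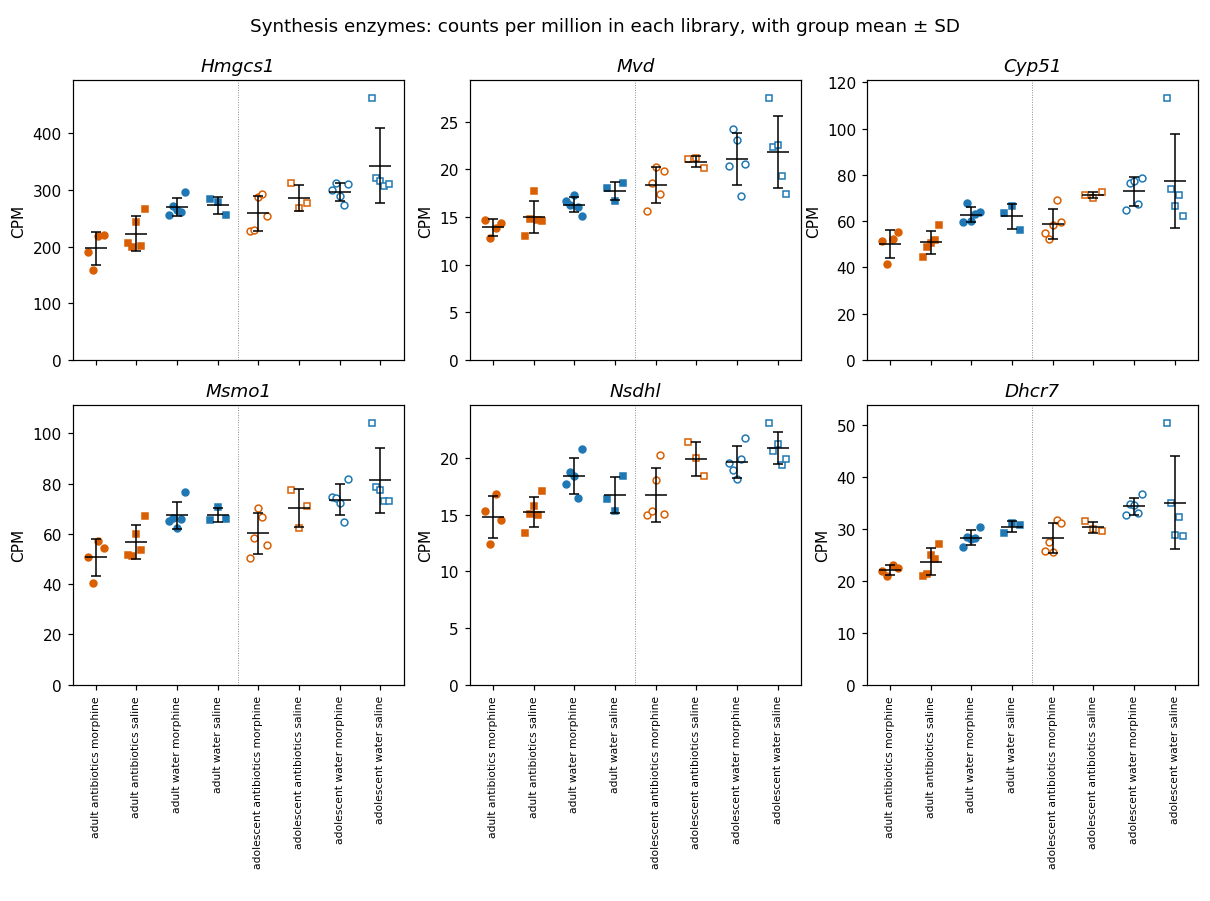
CPM (vertical axis, from 0) of 6 synthesis enzymes in each of 35 libraries, by group (horizontal axis). Filled points are adults, open points adolescents, orange antibiotics, blue water, circles morphine and squares saline, and bars give the group mean ± SD. Hmgcs1 averages 197 CPM in adult antibiotics morphine libraries and 343 CPM in adolescent water saline libraries, where 1 library at 461 CPM stands above the rest.

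Among the 7 regulators, 2 rose and 1 fell in adults, where 20.3% of all genes were called, 9.11% higher and 11.2% lower. Insig1, which retains the SCAP and SREBP complex and is itself an SREBP target, had 48.3, 61.6 and 73.7 CPM as lowest, median and highest level in adults, against 63.3, 73.0 and 81.3 CPM in adolescents. On the log2 scale it differed by -0.23 (SE 0.036, adjusted p = 2e-05, edgeR), and the ranges overlap. Srebf1, the SREBP gene mainly tied to fatty acid synthesis, moved the other way, with 36.0, 40.3 and 50.9 CPM in adults and 27.7, 33.1 and 45.8 CPM in adolescents. On the log2 scale it differed by 0.26 (SE 0.053, adjusted p = 0.000585, edgeR). Insig2, the Insig gene that is not driven by SREBP in the same way, averaged 41.4 ± 2.30 CPM in adults and 38.6 ± 2.64 CPM in adolescents (SD, n = 17 and 18; log2 fold change 0.11, adjusted p = 0.0121, edgeR). Srebf2, Scap, Nr1h2 and Nr1h3 did not pass, with adjusted p of 0.213, 0.925, 0.941 and 0.686 in that order. Scap, at 86.4 ± 2.79 CPM in adults and 85.9 ± 3.00 CPM in adolescents, had the smallest spread of the members.

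Of the 8 export and turnover genes, 1 rose and 1 fell with age, a share near the 20.3% of all genes called. Abcg1, a transporter that loads cholesterol onto lipoprotein particles, had 63.1, 71.7 and 80.5 CPM as lowest, median and highest level in adults, against 53.9, 63.6 and 76.0 CPM in adolescents (log2 fold change 0.13, SE 0.028, adjusted p = 0.00114, edgeR). Npc2, which moves cholesterol out of lysosomes, was at -0.17 on the log2 scale (adjusted p = 0.0438, edgeR) and lost its call in 26 of 43 alternative settings. It was at -0.18 (adjusted p = 0.069) in the 28 libraries under 1 CPM of islet markers and at -0.09 (adjusted p = 0.118) with the summed myelin markers as a term. Abca1, the other transporter, averaged 34.3 ± 3.20 CPM in adults and 32.1 ± 3.27 CPM in adolescents (adjusted p = 0.0704). Cyp46a1 averaged 190 ± 13.4 CPM in adults and 203 ± 17.9 CPM in adolescents (adjusted p = 0.064). Apoe averaged 1114 ± 106 CPM in adults and 1153 ± 98.1 CPM in adolescents (adjusted p = 0.377). The median log2 fold change of the 8 genes was 0.00.

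Age was then compared within each treatment, where each comparison sets 8 to 10 libraries against each other with the spread taken from all 35. Overlap of groups is described, here and for antibiotics and morphine, only for members named by their p on the same values. Its share over all genes was not counted, so groups without overlap add no support to a call. Counts of members at an unadjusted p under 0.05 are given below without the share of all genes at that threshold. The shares beside them are those of the adjusted p, so such counts are not read as results about the members. With antibiotics and saline, 4 members were lower and none higher, where 1.39% of all genes were called, 0.998% lower and 0.388% higher. Mvd was at 13.1, 14.8, 17.7, 14.6 and 14.6 CPM in the 5 adult libraries, against 21.1, 21.2 and 20.1 CPM in the 3 adolescent ones, so the groups do not overlap (log2 fold change -0.47, adjusted p = 0.0175, edgeR). Cyp51 was at 44.5, 48.9, 50.8, 51.8 and 58.3 CPM in adults, against 71.2, 70.0 and 72.8 CPM in adolescents (log2 fold change -0.49, adjusted p = 0.0499, edgeR). These groups do not overlap either. Nsdhl was at 13.4, 15.1, 15.8, 15.0 and 17.1 CPM in adults and at 21.4, 20.1 and 18.4 CPM in adolescents, again without overlap (log2 fold change -0.38, adjusted p = 0.0373, edgeR). Insig1 was at 63.8, 56.5, 60.5, 63.2 and 71.9 CPM in adults and at 81.3, 71.7 and 78.8 CPM in adolescents (log2 fold change -0.29, adjusted p = 0.0384, edgeR). Its highest adult library lies just above its lowest adolescent one. In the 28 libraries under 1 CPM of islet markers, Mvd passed at -0.46 (adjusted p = 0.0464, edgeR), while Cyp51 at -0.49, Nsdhl at -0.33 and Insig1 at -0.25 did not. The count was 0 to 9 when 1 library was left out. It was 0 without any 1 of the 3 adolescent libraries, 1 without any 1 of adult replicates 1 to 4, and 9 without adolescent water saline replicate 1. In that last fit 3.39% of all genes were called, 2.31% lower and 1.08% higher.

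With antibiotics and morphine, 2 members were lower in adults and none higher, where 1.87% of all genes were called, 1.13% lower and 0.74% higher. Insig1 was at 54.0, 48.3, 60.9 and 52.9 CPM in adults, against 68.4, 67.6, 76.5, 75.3 and 70.6 CPM in adolescents (log2 fold change -0.41, SE 0.071, adjusted p = 0.00105, edgeR). Mvd was at 14.7, 12.7, 13.8 and 14.3 CPM in adults, against 15.6, 18.6, 20.2, 17.4 and 19.9 CPM in adolescents (log2 fold change -0.39, adjusted p = 0.0358, edgeR). Neither gene's groups overlap. In the 28 libraries under 1 CPM of islet markers, neither passed, with Insig1 at -0.35 (adjusted p = 0.0858, edgeR) and Mvd at -0.46 (adjusted p = 0.0958), a larger difference for Mvd than with all 35 libraries. The count was 1 to 5 when 1 library was left out. It was 1 without adult replicate 1, 2 or 5 or adolescent replicate 3, 4 or 5. It was 3 without adolescent replicate 1 and 5 without adolescent water saline replicate 1. In that last fit 4.23% of all genes were called.

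On water, no member passed in edgeR. With saline, where 3.39% of all genes were called, 11 members had an unadjusted p under 0.05 and DESeq2 called 0. The strongest were Nsdhl at -0.32 (adjusted p = 0.0646) and Mvk, mevalonate kinase, at -0.32 (adjusted p = 0.066). With only the 28 libraries under 1 CPM of islet markers, 3 members passed, where 3.53% of all genes were called. Leaving out adolescent water saline replicate 4 or 5 gave 2 members. Without adolescent water saline replicate 1, 0 members passed, where 4.56% of all genes were called. The median log2 fold change of the enzymes was -0.11 in that fit. It was -0.28 in the fit under 1 CPM of islet markers, which keeps that library. With morphine, where 0.626% of all genes were called, 5 members had an unadjusted p under 0.05 and DESeq2 called 1, Mvd. Mvd was at 16.7, 16.2, 17.3, 16.05 and 15.1 CPM in adult water morphine libraries, against 20.3, 24.2, 23.0, 17.2 and 20.5 CPM in adolescent ones, with 1 adolescent library inside the adult range (log2 fold change -0.37, adjusted p = 0.0597, edgeR). Without adolescent water saline replicate 1, Mvd and Dhcr7 passed here, at adjusted p = 0.0137 and 0.0203 (edgeR), where 1.52% of all genes were called. With all 35 libraries, the log2 fold change of all 17 enzymes was negative in 3 of the 4 treatments. With antibiotics and saline it was negative for 16 of the 17, and Lss, lanosterol synthase, was at 0.03. These signs are not given here for the fit without adolescent water saline replicate 1.

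**Figure D3:**
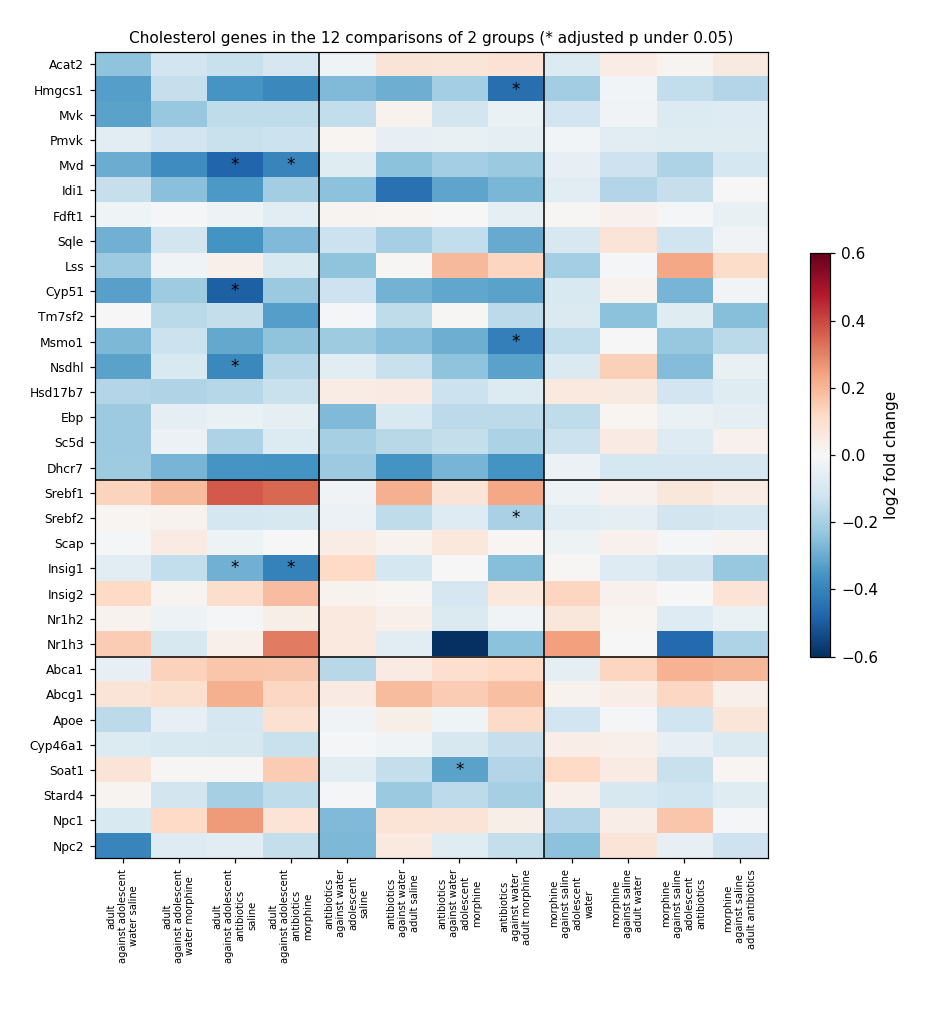
Log2 fold change (colour, blue lower and red higher in the first-named group) of 32 cholesterol genes (vertical axis) in the 12 comparisons of 2 groups (horizontal axis: 4 of age, 4 of antibiotics, 4 of morphine). Asterisks mark an adjusted p under 0.05 (edgeR): 4 and 2 members for age with antibiotics, 1 and 3 for antibiotics with morphine, and 0 in the other comparisons. The value of Nr1h3 for antibiotics in adolescents with morphine, -0.65 (adjusted p = 0.294, edgeR), lies past the end of the colour scale.

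Averaged over age and injection, mice given antibiotics had less mRNA of synthesis enzymes than mice on water. Of 32 members, 12 were lower and 1 higher, where 10.2% of all genes were called in either direction, 5.05% lower and 5.16% higher. Of 17 enzymes, 9 fell and none rose, and 15 had a negative log2 fold change. The median of the enzymes was -0.17, while that of all genes was 0.00. Without adolescent water saline replicate 1, 14 members were called, 12 of them lower, where 13% of all genes were called, and 9 enzymes fell with a median of -0.15. In the 28 libraries under 1 CPM of islet markers, 11 members were called, 10 of them lower, where 6.09% of all genes were called, and 7 enzymes fell. The antibiotics and age comparisons use the same 35 libraries.

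Dhcr7 showed the smallest adjusted p of the enzymes. Its lowest, median and highest levels were 20.9, 25.6 and 31.7 CPM in 17 libraries with antibiotics, against 26.5, 31.0 and 50.4 CPM in 18 libraries on water (log2 fold change -0.30, SE 0.055, adjusted p = 0.000313, edgeR). Hmgcs1 had 159, 229 and 312 CPM with antibiotics and 256, 293 and 461 CPM on water (log2 fold change -0.30, SE 0.057, adjusted p = 0.000631). Msmo1 had 40.4, 57.2 and 77.5 CPM with antibiotics and 62.5, 72.6 and 104 CPM on water (log2 fold change -0.29, SE 0.056, adjusted p = 0.000799). In each gene the median library with antibiotics was below the lowest library on water, and the ranges overlap. Cyp51 had 41.3, 54.9 and 72.8 CPM with antibiotics and 56.1, 66.5 and 113 CPM on water (log2 fold change -0.26, SE 0.062, adjusted p = 0.00589). Sc5d had 52.2, 65.2 and 70.0 CPM with antibiotics and 65.4, 70.7 and 98.3 CPM on water (log2 fold change -0.17, SE 0.039, adjusted p = 0.00317). Idi1 at -0.32, Sqle at -0.19, Nsdhl at -0.19 and Mvd at -0.19 on the log2 scale also fell. From the 28 libraries under 1 CPM of islet markers, Mvd at -0.18 (adjusted p = 0.0505, edgeR) and Sqle at -0.23 (adjusted p = 0.0759) did not pass. Sqle lost its call in 13 of 43 alternative settings. The enzymes that did not pass were Acat2, Mvk, Pmvk, Fdft1, Lss, Tm7sf2, Hsd17b7 and Ebp, with log2 fold changes between -0.17 for Ebp and 0.05 for Acat2.

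Among the 7 regulators, 1 passed with antibiotics, a share near the 10.2% of all genes called. That gene was Srebf2, which fell. It had 195, 219 and 239 CPM as lowest, median and highest level with antibiotics, against 220, 235 and 250 CPM on water (log2 fold change -0.11, SE 0.024, adjusted p = 0.00133, edgeR). Its median library with antibiotics lies just below the lowest library on water. Srebf1 averaged 39.5 ± 6.20 CPM with antibiotics and 35.4 ± 4.33 CPM on water (SD, n = 17 and 18; adjusted p = 0.131). Insig1 averaged 66.0 ± 9.62 CPM with antibiotics and 68.8 ± 5.51 CPM on water (adjusted p = 0.334). Scap, Insig2, Nr1h2 and Nr1h3 did not pass either, with adjusted p from 0.34 to 0.997.

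Of the 8 export and turnover genes, Abcg1 rose and Soat1 and Stard4 fell with antibiotics, where 10.2% of all genes were called. Abcg1 had 63.4, 73.1 and 80.5 CPM as lowest, median and highest level with antibiotics, against 53.9, 64.1 and 71.7 CPM on water (log2 fold change 0.14, SE 0.028, adjusted p = 0.000677, edgeR). Soat1, which esterifies cholesterol for storage, had 21.0, 24.5 and 27.7 CPM with antibiotics and 23.3, 27.9 and 33.8 CPM on water (log2 fold change -0.18, SE 0.037, adjusted p = 0.00133). The median with antibiotics was above the highest water library for Abcg1 and lay inside the water range for Soat1. Stard4, a sterol carrier of the cytosol and an SREBP2 target, averaged 31.0 ± 3.95 CPM with antibiotics and 34.5 ± 2.39 CPM on water (SD, n = 17 and 18; log2 fold change -0.15, adjusted p = 0.03, edgeR). Abca1, Apoe, Cyp46a1, Npc1 and Npc2 did not pass, with adjusted p from 0.298 to 0.928.

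**Figure D4:**
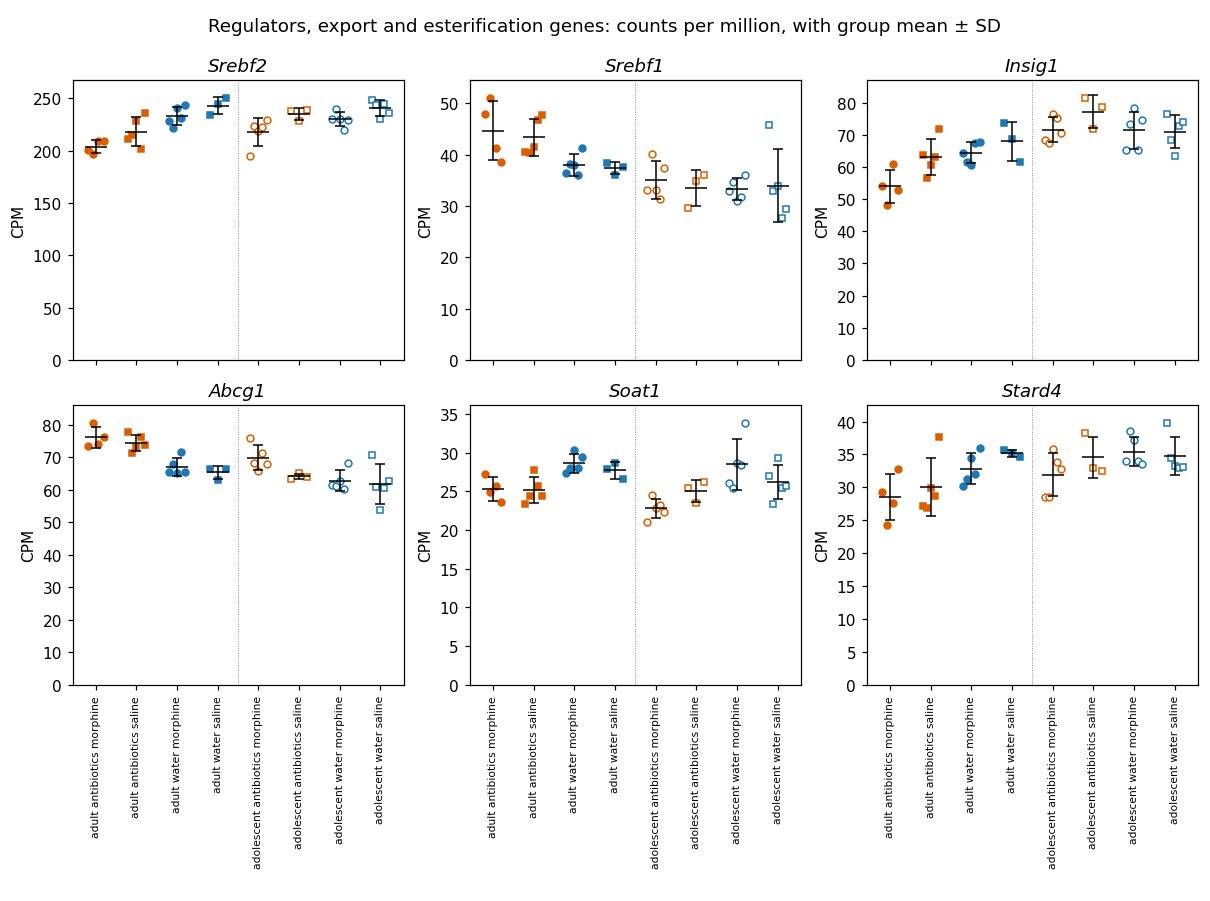
CPM (vertical axis, from 0) of 3 regulators and 3 export, esterification and transport genes in each of 35 libraries, by group (horizontal axis), drawn as for the enzymes with group mean ± SD. Srebf2 averages 204 CPM in adult antibiotics morphine libraries and 241 CPM in adolescent water saline libraries, while Abcg1 averages 76.1 and 61.8 CPM in the same groups.

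Antibiotics were also compared with water within each age and injection. In adults given morphine, 3 members were lower and none higher, where 1.92% of all genes were called, 1% lower and 0.916% higher. Hmgcs1 was at 190, 159, 219 and 221 CPM with antibiotics, against 256, 271, 264, 262 and 296 CPM on water (log2 fold change -0.45, adjusted p = 0.0257, edgeR). Msmo1 was at 50.9, 40.4, 57.2 and 54.4 CPM with antibiotics, against 65.1, 66.4, 62.5, 66.1 and 76.5 CPM on water (log2 fold change -0.41, adjusted p = 0.047, edgeR). Srebf2 was at 200.3, 196, 209 and 209 CPM with antibiotics, against 229, 222, 241, 231 and 243 CPM on water (log2 fold change -0.19, adjusted p = 0.0192, edgeR). In all 3 genes the groups do not overlap, but these same values named the genes, and the share over all genes was not counted. The number of members called was 0 to 9 when 1 library was left out. It was 0 without adult antibiotics morphine replicate 1 or 2 and 1 without adult water morphine replicate 2, 3, 4 or 5. It was 5 without adult antibiotics morphine replicate 3 and 9 without adolescent water saline replicate 1. In that last fit 3.52% of all genes were called, 1.98% lower and 1.54% higher.

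In adolescents given morphine, 1 member was lower and none higher, where 1.11% of all genes were called, 0.626% lower and 0.481% higher. Soat1 was at 21.0, 24.5, 22.8, 23.3 and 22.4 CPM with antibiotics, against 26.1, 25.5, 28.7, 28.5 and 33.8 CPM on water, without overlap (log2 fold change -0.32, SE 0.067, adjusted p = 0.00844, edgeR). Of these libraries, 3 of the 5 with antibiotics and 2 of the 5 on water exceeded 1 CPM of islet markers. The fit without such libraries was not run for this comparison. The call was lost without adolescent water morphine replicate 5, at adjusted p = 0.0502, and without adolescent antibiotics morphine replicate 1, at adjusted p = 0.0539. Leaving out adolescent water saline replicate 1 gave 3 members, where 2.03% of all genes were called. With saline no member passed in edgeR or in DESeq2. In adolescents given saline, where 0.0103% of all genes were called, 4 members had an unadjusted p under 0.05, and the smallest p were those of Sc5d at -0.20 (adjusted p = 0.421) and Hmgcs1 at -0.27 (adjusted p = 0.465). This comparison holds adolescent water saline replicate 1. Without that library, the median log2 fold change of the enzymes was -0.02, and 0 genes were called of all tested. Over the alternative settings Sc5d ranged from -0.23 to -0.10 and Hmgcs1 from -0.33 to -0.13. In adults given saline, where 0.031% of all genes were called, 9 members had an unadjusted p under 0.05, with Abcg1 at 0.19 (adjusted p = 0.287) and Dhcr7 at -0.36 (adjusted p = 0.297) the smallest. Dhcr7 was at 21.0, 21.4, 25.0, 24.2 and 27.0 CPM in adult antibiotics saline libraries and at 29.2, 31.2 and 30.8 CPM in adult water saline libraries, without overlap. It passed there without adolescent water saline replicate 1, at adjusted p = 0.0276 (edgeR), where 0.229% of all genes were called.

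Summed over the 18 enzymes, the median library had 739 CPM in adult antibiotics morphine, 723 CPM in adult antibiotics saline, 845 CPM in adult water morphine and 864 CPM in adult water saline. The medians in adolescents were 839 CPM with antibiotics and morphine, 893 CPM with antibiotics and saline, 947 CPM with water and morphine and 933 CPM with water and saline. Of the 17 tested enzymes, 14 had their lowest group mean in adult antibiotics morphine and 12 their highest in adolescent water saline, the group with the library that stands apart. Adult antibiotics morphine replicate 2 alone was the lowest of the 35 libraries for 8 enzymes. The 7 regulators summed to 463 to 525 CPM over adult libraries and 457 to 533 CPM over adolescent ones. Srebf2 alone averaged 243 CPM of a mean sum of 515 CPM in adult water saline. Insig1 and Srebf1 changed in opposite directions with age, so the sum does not show how much single regulators differed.

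Morphine changed no member past the threshold when averaged over the other conditions, where 0.316% of all genes were called in edgeR. Unadjusted, 7 members had a p under 0.05, and DESeq2 called 1, Srebf2. The share of all genes at that unadjusted threshold is not given here, so the count of 7 is not read as a result. Srebf2 had 195, 224 and 243 CPM as lowest, median and highest level in 19 libraries with morphine, against 201, 236 and 250 CPM in 16 with saline (log2 fold change -0.08, SE 0.024, adjusted p = 0.118, edgeR, and 0.0378, DESeq2). Tm7sf2, a sterol reductase, had 9.46, 13.5 and 15.6 CPM with morphine and 10.2, 15.1 and 17.3 CPM with saline (log2 fold change -0.16, adjusted p = 0.186, edgeR). The ranges of both genes overlap over most of their length. The 17 enzymes had a median log2 fold change of -0.06 with 15 of 17 negative. Abca1 had the largest positive value among members with an unadjusted p under 0.05, at 0.12 (adjusted p = 0.229, edgeR).

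Within the 4 strata, morphine also changed no member in edgeR, and DESeq2 called 0 in each. Of all genes, 0.331% were called in adolescents on water and 0.0466% in adolescents with antibiotics, and 0 in adults on water or with antibiotics. Unadjusted p under 0.05 were seen in 3 members in adolescents on water, 1 in adults on water, 5 in adolescents with antibiotics and 4 in adults with antibiotics. The smallest p in adults with antibiotics was that of Insig1, at 54.0, 48.3, 60.9 and 52.9 CPM with morphine, against 63.8, 56.5, 60.5, 63.2 and 71.9 CPM with saline (log2 fold change -0.23, adjusted p = 0.349, edgeR). These groups overlap. In adolescents with antibiotics it was Nsdhl at -0.26 (adjusted p = 0.495), in adolescents on water Insig2 at 0.13 (adjusted p = 0.351) and in adults on water Tm7sf2 at -0.25 (adjusted p = 1).

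Differences between effects were tested directly, and no member passed in edgeR or in DESeq2. The effect of morphine did not differ detectably between adults and adolescents on water, with 0 members at an unadjusted p under 0.05 and 0 genes called of all tested. The smallest p was that of Npc2, at 0.32 on the log2 scale (adjusted p = 0.756, edgeR). Over the alternative settings Npc2 ranged from 0.15 to 0.38. The comparison holds adolescent water saline replicate 1, which was high in Npc2 at 68.6 CPM. The effect of antibiotics between adults and adolescents given saline gave 1 member at an unadjusted p under 0.05, Insig1 at -0.23 (adjusted p = 0.866, edgeR), and 0 genes called. For the effect of antibiotics with morphine against that with saline, adolescents gave 3 members at an unadjusted p under 0.05, with Lss at 0.44 the smallest (adjusted p = 0.618), where 0.0621% of all genes were called. Lss ranged from 0.26 to 0.50 over the alternative settings, and adolescent water saline replicate 1 was high in it at 45.1 CPM. Adults gave 0 members at an unadjusted p under 0.05, with Insig1 at -0.15 (adjusted p = 1), where 0.00517% of all genes were called. The stronger calls for age with antibiotics and saline, and for antibiotics with morphine, are therefore not shown to differ from the strata compared. Whether the effect of age in mice given morphine differs between antibiotics and water was not tested.

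Genes of neighbouring lipid pathways were counted from further lists. Of 12 fatty acid genes driven by SREBP, 4 fell and 1 rose with age, where 20.3% of all genes were called. Fads2, a desaturase, was at -0.22 (adjusted p = 2.46e-06, edgeR), Gpam, which starts glycerolipid synthesis, at -0.13, Me1, which supplies NADPH, at -0.12 and Lpin1, a phosphatidate phosphatase, at 0.22. With antibiotics, where 10.2% of all genes were called, 7 of the 12 fell and none rose, among them Fads1 at -0.15 (adjusted p = 3.55e-05, edgeR), Acss2, an acetyl-CoA synthetase, at -0.24, Fads2 at -0.17 and Acly, which supplies cytosolic acetyl-CoA, at -0.13. Of 20 further genes of sterol sensing, uptake and handling, Abca7, a lipid transporter, was the only one called with age, at 0.30 (adjusted p = 0.000155, edgeR), a share below that of all genes. With antibiotics 4 of the 20 fell and 1 rose. The lipoprotein receptors Lrp8 and Vldlr were at -0.14 and -0.12, lipoprotein lipase Lpl at -0.26 (adjusted p = 0.0162) and the oxysterol binding protein Osbp at 0.11. Morphine called 1 gene of these 2 lists, Lpl at -0.34 (adjusted p = 0.0284, edgeR).

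Cell type markers were read beside these results. Of all genes, 20.3% were called with age, 11.2% lower and 9.11% higher. With antibiotics 10.2% were called, 5.05% lower and 5.16% higher. A call of 1 in a list of 7 markers is not read as a result about a cell type. None of 12 myelin markers passed with age or with antibiotics. Their sum was 1726 to 6124 CPM in adults and 1274 to 20710 CPM in adolescents. Without adolescent water saline replicate 1, the median sum was 2043 CPM in adults and 2855 CPM in adolescents. It was 2786 CPM with antibiotics and 1995 CPM on water, and the ranges overlap in both comparisons. With the log of the summed myelin markers as a term, 10 enzymes were lower with age (median -0.13, 16 members called) and 10 with antibiotics (median -0.19, 15 members called). Of 9 astrocyte markers 3 were lower and 1 higher with antibiotics, and their sum was 3374 to 4071 CPM with antibiotics and 3490 to 4387 CPM on water. In adult water saline libraries, 1 of these markers, Slc1a2, averaged 3043 CPM of a mean sum of 3982 CPM. The astrocyte sum thus mainly follows that gene. With the astrocyte sum as a term, 7 enzymes were lower with antibiotics (median -0.23, 8 members called), and 5 members lost their call. Of these, Idi1 at -0.35 (adjusted p = 0.0775, edgeR), Sqle at -0.25 (adjusted p = 0.0821) and Stard4 at -0.19 (adjusted p = 0.0754) had larger log2 fold changes than without the term. Abcg1 at 0.12 (adjusted p = 0.0796) and Soat1 at -0.14 (adjusted p = 0.109) had smaller ones. For age, 14 enzymes were lower with the astrocyte term (19 members called). The shares of all genes called with the myelin or astrocyte term are not given here. Of 7 microglia markers 5 were lower with age and 6 with antibiotics, summing to 271 to 374 CPM with antibiotics and 314 to 431 CPM on water. They summed to 271 to 373 CPM in adults and 308 to 431 CPM in adolescents. Of 7 markers of oligodendrocyte precursors 4 were lower with age and 2 with antibiotics, and their sums were 301 to 363 CPM in adults and 330.4 to 505 CPM in adolescents. Tnr alone averaged 228 CPM of a mean precursor sum of 345 CPM in adult water saline libraries. Of 7 markers of cortical excitatory neurons 1 was lower with age and 1 higher with antibiotics. The excitatory markers summed to 3415 to 4150.2 CPM in adults (mean 3837, SD 247) and to 4027 to 4554 CPM in adolescents without adolescent water saline replicate 1 (mean 4339, SD 157). All 4 islet markers were lower in adults, while none of 7 striatal markers and none of 3 tested choroid plexus markers passed with age or with antibiotics. The part of excitatory neurons, microglia and precursors in the enzyme results was not tested.

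**Figure D5:**
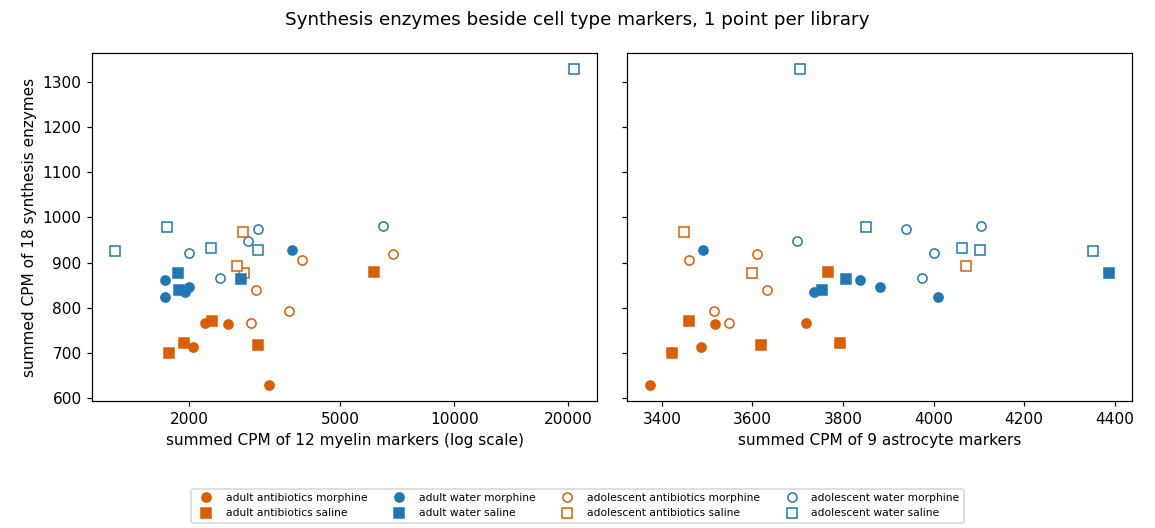
Summed CPM of the 18 synthesis enzymes (vertical axis) against summed CPM of 12 myelin markers (left, log axis) and of 9 astrocyte markers (right), with 1 point per library. Filled points are adults, open points adolescents, orange antibiotics, blue water, circles morphine and squares saline. Adolescent water saline replicate 1 lies apart at 1329 CPM of enzymes and 20710 CPM of myelin markers.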

How the data were processed

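Raw read counts per gene in the deposited table came from libraries of polyadenylated RNA, made with the Fast RNA-seq Library Prep Kit V2 per the labels. Per the submitters' processing notes, the tools were STAR (version 2.7.10a) and DESeq2, with mm10 as the build. Neither the counting annotation nor its strand setting is stated in the sources used here. Symbols came from GENCODE M21 and matched 52073 of 56980 identifiers. Of the 33 members, 16 overlap an annotated gene, 6 of them on the same strand, so their counts may hold or lack shared reads. Libraries under 1000000 counts were left out.

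Counts were fitted in edgeR 4.0.16 (R 4.3.3, limma 3.58.1) with TMM scaling, its filter on low counts, 8 group means and robust quasi-likelihood tests of 19 contrasts, after a test on simulated data. Ages, antibiotics and morphine were also averaged with equal weight over 4 strata. Replicate numbers did not pair libraries. No 2 of 62 replicate pairs agreed within counting noise (lowest chi-square per degree of freedom 1.78). Pairs holding adolescent water saline replicate 1 had values of 37.7 to 64.0. Pairs holding adult antibiotics saline replicate 2 had 34.4 to 53.9, and the other pairs of its group 3.97 to 13.6. That library was left out only in the fits that each left out 1 library. Alternatives were DESeq2 1.42.0, its size factors, no filter, all 37 libraries, only the compared groups, the replicate block, and leaving out each library. Terms for myelin and astrocyte markers and a fit of the 28 libraries under 1 CPM of islet markers were added after seeing the data.

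In each comparison, members past the threshold, at most 8 by adjusted p, are given with their values, and where none passed the 2 with the smallest p. Further genes are the passing ones, at most 4 per list. The members and lists were chosen with earlier results of these data known.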

Additional observations from a re-analysis of the deposited data

Results flagged for a closer look

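In groups of 4 to 10 libraries, the gap between the most extreme library and its nearest neighbour was set against the range of the group, by Dixon's criterion. Of 192 gene and group pairs, 19 exceeded it, where chance gives about 1 in 20 groups. In 12 of them the library was adolescent water saline replicate 1. There Hmgcs1 was at 461 CPM (307 to 321 in the other 4), Cyp51 at 113 CPM (62.1 to 73.8), Msmo1 at 104 CPM (73.0 to 78.6), Npc1 at 102.5 CPM (47.0 to 50.3) and Sc5d at 98.3 CPM (70.8 to 76.2). Sqle was at 95.7 CPM there (58.6 to 63.9 in the other 4), Npc2 at 68.6 CPM (40.9 to 48.0), Lss at 45.1 CPM (25.8 to 30.3) and Stard4 at 39.8 CPM (32.9 to 34.4). Idi1 was at 28.6 CPM (14.9 to 17.7), Ebp at 19.1 CPM (10.9 to 12.1) and Nr1h3 at 2.99 CPM (1.55 to 1.90).

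In the same group, Tm7sf2 was low in replicate 3, at 11.9 CPM (15.9 to 17.3 in the others). Adult antibiotics saline replicate 5 was low in Cyp46a1 at 170 CPM (191 to 197 in the others) and high in Npc1 at 74.0 CPM (52.4 to 58.2) and Stard4 at 37.7 CPM (26.9 to 29.8). Adult water morphine replicate 5 was low in Cyp46a1 at 165 CPM (199.97 to 206) and high in Msmo1 at 76.5 CPM (62.5 to 66.4). Adult water morphine replicate 2 was high in Idi1 at 17.4 CPM (14.2 to 15.0).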

How the results depend on the processing

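With the replicate number as a block, 18 members were called for age and 13 for antibiotics, both averaged over 4 strata, as without it. It ended the calls of Npc2 for mean age and of Cyp51 for age with antibiotics and saline. The numbers do not pair libraries: the deviations of 108 same-numbered pairs correlated at -0.226 to 0.277 (median 0.0055), and 9 of 35 libraries correlated best with their own number. When 1 library was left out, the members called ranged from 16 to 21 for mean age and 11 to 14 for mean antibiotics. For age within treatments they ranged from 0 to 2 on water with saline, 0 to 2 on water with morphine, 0 to 9 with antibiotics and saline, and 1 to 5 with antibiotics and morphine. For antibiotics they ranged from 0 to 1 in adults with saline, 0 to 3 in adolescents with morphine and 0 to 9 in adults with morphine. Both counts of 9 came without adolescent water saline replicate 1. There 3.39% of all genes were called for that age comparison and 3.52% for that antibiotics comparison. The members called stayed at 0 in every morphine comparison, in adolescents with saline and in the 4 interactions.

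For age on water with morphine, where edgeR called 0 members, DESeq2, no filter and the astrocyte term each called 1, the compared groups alone 2 and the myelin term 3. For age with antibiotics and saline, all 37 libraries and those under 1 CPM of islet markers called 1 and the myelin term 11, against 4. For age with antibiotics and morphine, DESeq2 called 5, the compared groups alone 4, the myelin term 8 and libraries under 1 CPM of islet markers 0, against 2. For age on water with saline, libraries under 1 CPM of islet markers called 3, against 0. For mean morphine, DESeq2 and the myelin term called 1. The astrocyte term called 8 members for mean antibiotics, against 13. For antibiotics in adults with saline the myelin term called 1, against 0. In adolescents with morphine the compared groups alone called 3, the myelin term 5 and the astrocyte term 0, against 1. In adults with morphine, DESeq2 and the compared groups alone called 5 and the myelin term 10, against 3. The share of all genes called is not given beside these counts, so a higher count is not read as a result about the members. The causes were not tested, other than fewer libraries where libraries were left out.

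Over the named members and all settings, 2084 values were recomputed. Of these 1920 kept their direction and side of the threshold, 149 lost the call, 15 gained it and 0 changed direction. Few libraries per group limit the comparisons within strata, and Nr1h3 (19 counts in its lowest library) and Fdps are limited by depth.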
